A study of Danio rerio with 2 samples.

Results

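The genes of the proteasome, the protease that degrades proteins tagged with ubiquitin, were examined in cells sorted from zebrafish embryos for a gata1-EGFP transgene, 22 hours after fertilization. The members are the genes whose name in the deposited table is *psm*, a letter from a to g, a number and at most 1 further letter, which leaves out *psmc3ip*. The table held 53 such genes among 32105. They comprised 21 genes of the core (9 *psma*, 12 *psmb*), 23 of the cap (7 *psmc*, 16 *psmd*) and 9 others (5 *psme*, 1 *psmf*, 3 *psmg*). There was 1 library of embryos labelled *add1* knockout, called the mutant library here, and 1 of siblings labelled wildtype, both of cells labelled erythroblasts. The transgene reports activity of the *gata1* promoter, and cells of both groups carry it. The *add1* allele and the number of embryos behind a library were not given in the sources used here. This comparison addressed the nuclear role of *add1*, a gene of the membrane skeleton, at a stage before red cell numbers visibly differ.

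The proteasome core is a barrel of stacked rings, with alpha subunits forming the outer rings and beta subunits the inner rings that hold the proteolytic sites. The cap sits on the barrel's end, and its ring of ATPases unfolds substrates and threads them in, while its non-ATPase subunits bind ubiquitin and remove it. In mammalian red cells the ubiquitin-proteasome system helps clear ribosomes and other proteins as the reticulocyte matures. Subunits assemble in fixed proportions as proteins. The balance of core and cap messages and of alternative subunits can be read within each library, but it describes messages and not particles.

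Total counts were 5956344 in the mutant against 6157792 in the sibling library. *add1* itself had 18 counts against 1166, so the targeted gene followed the labels. With 1 library per genotype there was no test across embryos and no p-value, and genotype cannot be told apart from other differences between the preparations. Folds are ratios of CPM, counts scaled to the library total, with exact 95% intervals that cover counting error only. Reads had no molecular identifiers, so these intervals may be too narrow. Log2 ratios compare CPM + 1, with the mutant library in the numerator, and genes that reached 10 CPM in at least 1 library are called measured. Erythroid markers were present in both libraries, all 13 of 13 measured, with a summed level of 35970 against 73684 CPM (mutant against sibling, as in all pairs of values below). Markers of other cells differed as well. Skeletal muscle markers (11 of 12 matched) summed to 11661 against 3638 CPM, and those of hatching gland and notochord (9 genes matched) to 3250 against 166 CPM. Neural markers (8 of 8) summed to 380.4 against 122 CPM, with *sox11b* and *neurog1* at 0 counts in the sibling library. Epidermis and periderm markers (7 of 7) summed to 2621 against 1629 CPM, myeloid markers (9 of 9) to 854 against 1041 CPM and endothelial markers (6 of 6) to 188 against 141 CPM. Members of the last 2 lists went both ways. Log2 ratios were above 0 for 4 of 9 myeloid genes, with *lyz* at 41.5 against 192 CPM and *mmp13a* at 152 against 57.0 CPM. They were above 0 for 4 of 5 measured endothelial genes, with *tie1* at 14.3 against 23.2 CPM and *fli1a* at 120 against 74.4 CPM. Apart from *sox11b* and *neurog1*, no matched marker was at 0 counts in either library. The part of these differences in the results below was not tested, and in bulk samples fewer cells of a type and less RNA per cell cannot be told apart.

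Of the 53 proteasome genes, 46 were measured, 15 of them in the core, 23 in the cap and 8 among the others. As a set they differed little between the libraries. Together they took 1.103% of the counts in the mutant library (65676 counts, interval 1.09 to 1.11) and 1.05% in the sibling library (64917 counts, 1.05 to 1.06). None of the 46 was at least 2-fold higher, where 10.1% of the 9672 measured genes were, and none was at least 2-fold lower, where 2.56% were. Only *psmf1*, which reached 10 CPM in the mutant library alone, was at least 1.5-fold higher, against 21.5% of all measured genes. Only *psmd10* and *psme4a* were at least 1.5-fold lower, against 8.17%. The other 43 were within 1.5-fold, where 70.3% of all measured genes were.

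The set was also narrow in its spread. The log2 ratios of the 46 genes had a standard deviation of 0.28, and those of all measured genes one of 0.73. A narrow spread was not particular to this set. Among the pathway lists read below, the 7 measured genes of the COP9 signalosome had a standard deviation of 0.22. Those of the other lists ran from 0.33 to 1.64. At a higher minimum of 50 CPM, all 38 proteasome genes left were within 1.5-fold, where 77.1% of 4254 genes were. The standard deviations were then 0.22 and 0.74. Counting intervals above 1 were found for 17 of the 46 genes, where 40.0% of all measured genes had one, and intervals below 1 for 9 genes, where 21.9% had one. Proteasome genes were also counted more deeply, with a median CPM of 239 against 36.0 for all measured genes, and the part of depth in the narrower spread was not tested beyond the minimum of 50 CPM.

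**Figure D1:**
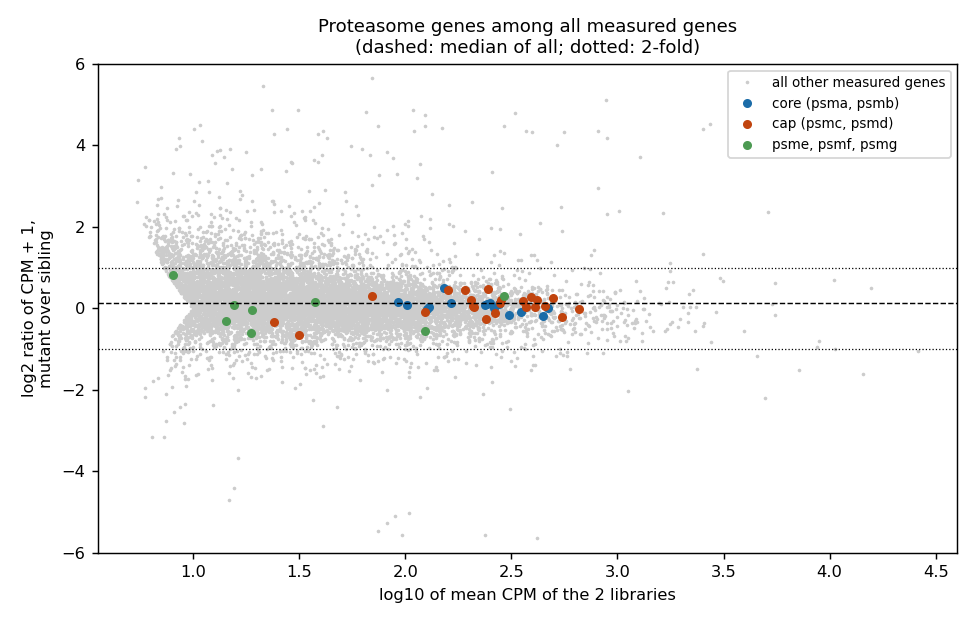
Log2 ratio of CPM + 1 (mutant over sibling) against the log10 mean CPM of both libraries for each measured gene, with core, cap and other proteasome genes in colour. All 46 measured proteasome genes lie between -0.67 and 0.83, inside the dotted lines at 2-fold.

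The direction of the set depended on the scaling. With library totals the median log2 ratio was 0.07 and 30 of 46 genes were above 0. Of all 9672 measured genes 5878 were above 0, and their median was 0.13. With TMM factors, which set the bulk of genes as equal, the proteasome median was -0.14, with 8 of 45 genes above 0. The median of all genes was -0.08. Over the genes measured with library totals, 9 of 46 proteasome genes and 4340 of all 9672 were above 0 with TMM. The distance from the median of all genes was -0.07 under both, but it was 0.04 with library totals and a minimum of 50 CPM, where 21 of 38 proteasome genes were above the median of all genes, and 0.03 with no minimum. The summed level was 1.05-fold that of the sibling library with totals (1.03 to 1.06) and 0.909-fold with TMM (0.899 to 0.919). The 6 scalings compared were library totals, TMM, median of ratios, upper quartile, totals without the most abundant gene classes, and FPKM. Of the 46 genes measured with library totals, 9 were above 0 in each scaling and 16 were below 0 in each. The sign of the other 21 depended on the scaling. The 9 include *psmf1*, which reached the minimum only in the mutant library and is not among the 45 genes measured with TMM. The scalings other than library totals and FPKM lower all genes alike. Genes below 0 with totals therefore stay below 0 under them by construction, while small positive values turn negative. The numbers of genes that keep each sign are thus no measure of direction. The share of all measured genes that keep their sign over these scalings was not computed.

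Levels can be compared between genes only per length, for which the deposited FPKM (fragments per kilobase, scaled to library size) were used. Where a subunit is encoded by paralogs among the members, their FPKM were summed. The alpha ring was even, its 7 positions running from 141 FPKM for *psma2* to 259 FPKM for *psma1* in the mutant library and from 144 to 260 FPKM, for the same genes, in the sibling library. Its members form the gate that closes the barrel. A second gene with the symbol PSMA2 in the name table (*si:rp71-45k5.4*) had 602 against 574 counts, or 63.2 against 58.3 FPKM. It is not a member and was not summed with *psma2*, which would not be the lowest position with it. The position that mammals fill with PSMA7 or the testis paralog PSMA8 was represented by *psma8*, at 160 FPKM in the mutant against 146 FPKM in the sibling library.

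The constitutive beta ring was less even, with a ratio of highest to lowest position of 6.92 in the mutant against 7.69 in the sibling library, against 1.84 and 1.81 for the alpha ring. *psmb5*, which carries the chymotrypsin-like site, had the highest FPKM of all members, 361.7 in the mutant against 359.3 in the sibling library. *psmb7*, the trypsin-like subunit, was at 184 and 210 FPKM, and *psmb6*, the caspase-like subunit, at 83.4 and 82.1 FPKM. On FPKM, the 3 catalytic subunits thus differed from each other by far more than any of them differed between the libraries. *psmb2*, a structural subunit, was lowest of the ring at 52.2 and 46.7 FPKM. The order rests on the lengths behind the FPKM. On CPM, *psmb7* was at 417 and 475 and *psmb5* at 473 and 470. The spans of *psmb1*, *psmb2*, *psmb5* and *psmb6* overlap those of other genes, in the alpha ring only that of *psma6b* does. The part of lengths and overlaps in the unevenness was not tested.

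In the cap, the ATPase positions ran from *psmc3*, at 129 FPKM in the mutant against 155 FPKM in the sibling library, to *psmc6*, at 285 and 329 FPKM. The base subunit *psmd2*, a scaffold that docks ubiquitin shuttles, was the highest *psmd* gene at 301 and 289 FPKM. It lies on the unplaced sequence KN149818.1 of GRCz10, from 923 to 21901. A second row, without a name in the table but with the symbol PSMD2 in the name table, had 1671 and 1502 counts, or 269 and 234 FPKM. It was not summed with *psmd2*, which would be above *psmb5* with it. How reads were divided between the copies is uncertain. *psmd14*, the deubiquitinase of the lid, had 185 and 181 FPKM, above the median of the 8 lid positions, 161 and 148 FPKM.

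Assembly chaperones, which leave the finished particle, were below the medians of the alpha, beta and ATPase rings. *psmd5*, *psmd9* and *psmd10*, chaperones of cap assembly in mammals and yeast, had 7.0, 81.3 and 18.8 FPKM in the mutant library. In the sibling library they had 8.87, 66.3 and 30.3 FPKM. The core assembly chaperones *psmg1*, *psmg2* and *psmg3* had 24.5, 11.7 and 22.9 FPKM in the mutant library and 21.8, 14.8 and 23.5 FPKM in the sibling library. *psmd9*, the highest of them, was above the lowest beta ring position, *psmb2*, in both libraries. The activator *psme3*, which binds to only some particles, was at 106 and 85.1 FPKM. Across the 46 measured members the log2 FPKM of the 2 libraries had a Pearson correlation of 0.987 and a Spearman correlation of 0.980, as a description over genes that share both libraries and their lengths.

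**Figure D2:**
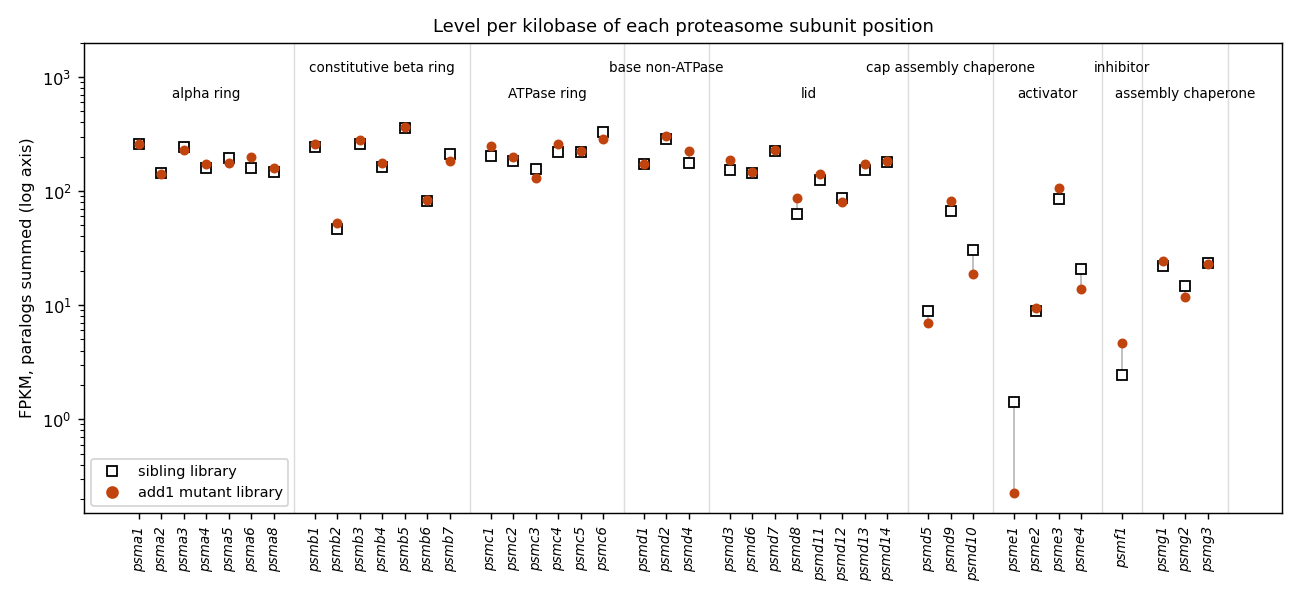
FPKM of subunit positions on a log axis, with paralogs summed, in the sibling library (open squares) and the *add1* mutant library (filled circles). Positions are ordered by the part of the particle, and *psmb8* to *psmb12* are not drawn. Ring and lid positions lie between 46.7 and 362 FPKM in both libraries, and the largest gap between the libraries is that of *psme1*, at 0.225 and 1.42 FPKM.

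Core and cap were then compared. The 15 measured core genes had a median log2 ratio of 0.08 (range -0.19 to 0.50) and the 23 cap genes one of 0.06 (-0.67 to 0.48), a difference of 0.02. With TMM, which left all of these genes measured, the difference was also 0.02, and it turned negative, at most 0.06 in size, with a minimum of 50 CPM, without a minimum, without the assembly chaperones and inducible subunits, with paralogs summed and with rows matched by other names. The medians therefore gave no stable order of core and cap.

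The summed counts, which need no scaling within a library, gave a small difference. Core genes made up 21645 of 62497 core and cap counts in the mutant library, a share of 34.6% (34.3 to 35.01). In the sibling library they made up 22099 of 61705 counts, 35.8% (35.4 to 36.2). The core share was thus 1.18 percentage points lower in the mutant library (counting interval 0.648 to 1.71 lower). On FPKM, which remove the effect of gene length, the shares were 44.6% and 45.6%. By part, the summed level of the lid relative to the sibling library was 1.0997 with library totals (1.08 to 1.12) but 0.956 with TMM. The base non-ATPases were at 1.07 (1.04 to 1.098) and 0.927, and the ATPase ring at 1.04 (1.02 to 1.06) and 0.904. The alpha ring was at 1.02 (0.996 to 1.05) and 0.889, and the beta ring at 1.002 (0.976 to 1.03) and 0.871. The order of these summed levels, from lid to beta ring, is the same under both because a scaling moves all of them by the same factor. By median log2 ratio with library totals the order differed, with the lid at 0.04, the beta ring at 0.08 and the ATPase ring at 0.14. Of the lid genes, *psmd3* had 2542 against 2172 counts and *psmd8* had 1698 against 1253. The span of *psmd3* overlaps those of 7 other genes, and that of *psmd8* overlaps *gltscr1*. The summed level of the lid without these genes was not computed, so its place in the order may rest on them. The core share without them was not computed either.

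Single core genes differed little. *psma6a* stood highest in the core, with 1063 against 777 counts, or 178 against 126 CPM, 1.41-fold higher (1.29 to 1.55). It encodes an alpha ring subunit and was above 0 under all 6 scalings. *psma6b* was lowest of the measured alpha genes per length, at 80.4 against 75.6 FPKM, with 627 against 610 counts. The 7 measured alpha genes other than *psma6a* lay between -0.17 and 0.14 on the log2 scale. *psmb7* was lowest in the core, with 2484 against 2926 counts, or 417 against 475 CPM, 1.14-fold lower (1.08 to 1.20). *psma5* was 1.12-fold lower (1.05 to 1.20), at 290 against 326 CPM. *psmb5* had 2818 against 2894 counts, 473 against 470 CPM, with an interval of the fold from 0.955 to 1.06.

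Cap genes ranged more widely, down to the assembly chaperone *psmd10* at -0.67 on the log2 scale. Without *psmd5*, *psmd9* and *psmd10* they ran from -0.26 to 0.48, against -0.19 to 0.50 in the core. *psmd8*, a lid subunit on chromosome 18 (44622133 to 44655070, GRCz10), had 1698 against 1253 counts, or 285 against 203 CPM, 1.40-fold higher (1.302 to 1.51). Its span overlaps that of *gltscr1*, and the strand setting of the counting was not given in the sources used here. *psmc1b* had 1322 against 993 counts, or 222 against 161 CPM, 1.38-fold higher (1.27 to 1.496). *psmd4b* had 1103 against 829 counts, or 185 against 135 CPM, 1.38-fold higher (1.26 to 1.51). *psmd4* genes encode a ubiquitin receptor of the base, and the span of *psmd4b* overlaps *tapbpl* and *cep76*. *psmd8*, *psmc1b* and *psmd4b* were above 0 under all 6 scalings, which are not 6 separate checks.

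ATPase genes, whose products share a ring, went both ways. *psmc4* had 3213 against 2799 counts, or 539 against 455 CPM, 1.19-fold higher (1.13 to 1.25). *psmc3*, whose span overlaps that of *slc7a9*, had 1300 against 1614 counts, or 218 against 262 CPM, 1.20-fold lower (1.12 to 1.29). *psmc6* had 3036 against 3631 counts, or 510 against 590 CPM, 1.16-fold lower (1.102 to 1.21). The signs of these 3 genes were the same under all 6 scalings. *psmd14* was at 213 against 208 CPM, with an interval of the fold from 0.947 to 1.11, and its sign depended on the scaling.

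*psmd10* was the lowest measured member. It had 144 against 240 counts, or 24.2 against 39.0 CPM, 1.61-fold lower (1.31 to 1.996). In mammals its product, gankyrin, is a cap assembly chaperone that also binds the retinoblastoma protein and Mdm2. Its span overlaps that of *nxt2*. The other chaperones of cap assembly did not share a direction. *psmd5* was at 21.2 against 26.8 CPM, 1.27-fold lower with an interval that includes 1 (0.998 to 1.61), and *psmd9* at 77.2 against 63.0 CPM, 1.23-fold higher (1.07 to 1.41).

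**Figure D3:**
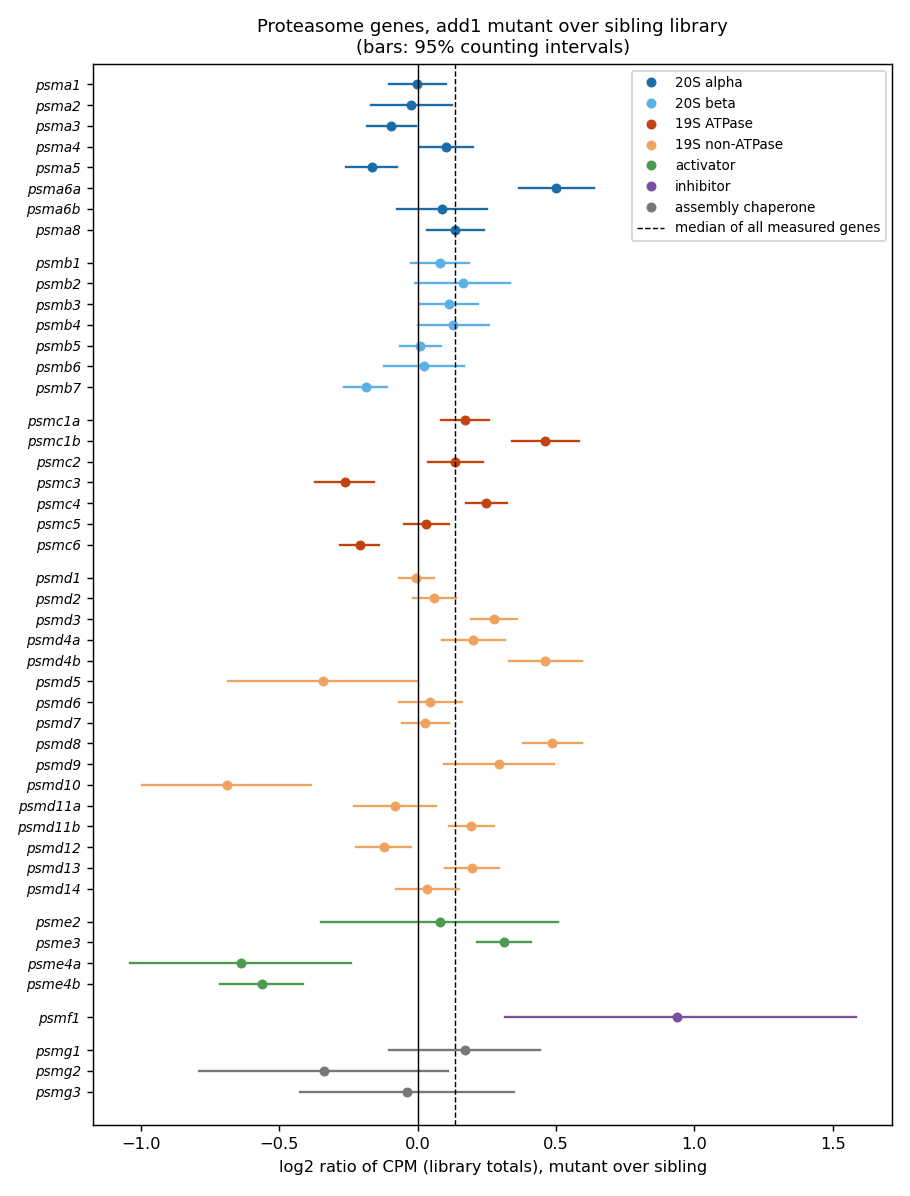
Log2 ratio of CPM (mutant over sibling, library totals) for the 46 measured proteasome genes by class, with 95% counting intervals as bars. Of the 46 points 43 lie within 1.5-fold. *psmf1*, 1.92-fold higher, lies farthest to the right and reached 10 CPM only in the mutant library. *psmd10*, 1.61-fold lower, lies farthest to the left. The dashed line is the median of all measured genes.

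Activators replace the cap at the ends of the barrel, and they differed from each other. *psme3*, which encodes the nuclear activator PA28 gamma, had 1920 against 1600 counts, or 322 against 260 CPM, 1.24-fold higher (1.16 to 1.33). The span of *psme3* overlaps those of *nbr1* and *skap1*. *psme4b* had 598 against 914 counts, or 100.4 against 148 CPM, 1.48-fold lower (1.33 to 1.64). Its paralog *psme4a* had 87 against 140 counts, or 14.6 against 22.7 CPM, 1.56-fold lower (1.18 to 2.06). *psme4* encodes PA200, a nuclear activator that in mammals takes part in breaking down acetylated histones. Both *psme4* genes were below 0, and *psme3* above 0, under all 6 scalings.

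The PA28 alpha and beta activator, encoded by *psme1* and *psme2*, is known in mammals as induced by interferon gamma. *psme1* had 2 against 13 counts and was not measured, and the ratio, 6.29-fold lower, had an interval from 1.42 to 57.4. *psme2* had 95 against 93 counts, or 15.9 against 15.1 CPM, with an interval of the fold from 0.785 to 1.42. *psmf1*, the inhibitor PI31, which in other species also serves as an adaptor for proteasome transport, had 63 against 34 counts, or 10.6 against 5.52 CPM. It was 1.92-fold higher (1.24 to 2.999), and it passed the minimum of 10 CPM only in the mutant library, so it had to be higher there to be measured. The chaperones *psmg1*, *psmg2* and *psmg3* were at 39.6 against 35.2, 12.6 against 15.9 and 18.6 against 19.2 CPM, each with an interval that includes 1.

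Subunits that replace the constitutive beta subunits were near or at 0. *psmb8a*, *psmb9a* and *psmb10*, the immunoproteasome genes of chromosome 19, had 0 counts in both libraries, as did *psmb11b*, a thymus-type subunit gene, and *psma6l*. A count of 0 allows a level of up to 0.504 CPM for the mutant library and 0.487 CPM for the sibling library. *psmb12* had 6 against 2 counts. The spans of *psmb8a* and *psmb10* overlap each other and hold *psmb12* and *psmb9a*, so a rule of the counting for shared positions could lower these values, which was not tested. A gene written *PSMB10* on chromosome 4, not a member because its name is in capitals, had 12 against 18 counts, and *PSMG4*, a core chaperone gene left out for the same reason, had 29 against 21.

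For 5 pairs of paralogs the balance within a pair was compared, which needs no scaling. Reads that fit both copies cannot be traced in these data, so the division is uncertain. *psma6a* took 62.9% (60.5 to 65.2) of 1690 pair counts in the mutant library and 56.0% (53.4 to 58.7) of 1387 in the sibling library. The level of *psma6b* was 105 against 99.1 CPM. *psmc1b* took 36.9% (35.3 to 38.5) of 3583 counts and 32.4% (30.7 to 34.0) of 3069, while *psmc1a* was at 379.6 against 337 CPM. The intervals of the libraries did not overlap for either pair, and how often this holds among other paralog pairs was not computed.

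The share of *psmd4b* was 45.8% (43.8 to 47.8) in the mutant against 41.4% (39.2 to 43.6) in the sibling library. *psmd11b*, the main copy of a lid subunit, took 78.8% (77.4 to 80.2) and 75.4% (73.9 to 76.9), with *psmd11a* at 120.2 against 127 CPM and *psmd11b* at 447 against 391 CPM. For these pairs the intervals did not overlap either. These intervals cover counting error only. Single-gene counting intervals lay above 1 for 40.0% and below 1 for 21.9% of all measured genes. Those depend on the scaling, unlike a share within a pair, so they are no background for these shares. Other paralog pairs were not examined, so whether such shifts are particular to these pairs was not tested. On FPKM, *psmd4b* had 53.9% of the pair's signal in the mutant against 49.4% in the sibling library. On counts it was below *psmd4a* in both libraries, so which copy leads rests on the lengths used. No interval was computed for the FPKM shares, and the spans of both genes overlap those of other genes. *psme4b* took 87.3% (84.6 to 89.7) and 86.7% (84.5 to 88.7), with overlapping intervals, and both copies were lower in the mutant library.

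**Figure D4:**
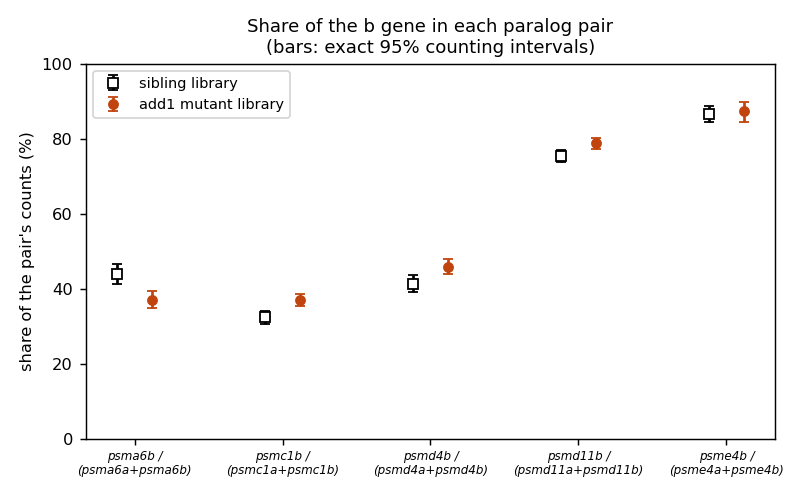
Share of the b gene in the counts of each paralog pair, in percent, for the sibling library (open squares) and the *add1* mutant library (filled circles), with exact 95% counting intervals. The share is lower in the mutant library for *psma6b*, higher for *psmc1b*, *psmd4b* and *psmd11b*, and overlaps for *psme4b*.

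Other genes of the ubiquitin pathway were read in 6 lists. Among ubiquitin genes and E1 enzymes 1 of 5 was at least 2-fold higher and 0 lower, with a median log2 ratio of -0.22. The higher gene was *ubb*, a polyubiquitin gene, with 6348 against 2664 counts, or 1066 against 433 CPM, 2.46-fold higher (2.35 to 2.58). *ubc*, the other polyubiquitin gene, was at 915 against 615 CPM, 1.49-fold higher (1.43 to 1.55). *rps27a*, which encodes ubiquitin fused to a ribosomal protein, was lower, at 133 against 175 CPM.

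Of 10 measured accessory and assembly factors, 0 were at least 2-fold higher, against 10.1% of all measured genes, and 1 lower, against 2.56%. Their median was -0.10. The lower gene was *txnl1*, a thioredoxin of the cap, with 25 against 1082 counts, or 4.197 against 176 CPM, so it passed the minimum only in the sibling library. It lies on chromosome 21 from 812490 to 823639, between the chromosome's start and *add1* (1964471 to 2042174), and was 41.9-fold lower. *akirin2*, which in human cells guides proteasomes into the nucleus, was at 81.3 against 130 CPM, 1.59-fold lower (1.42 to 1.79). *ublcp1*, a phosphatase of nuclear proteasomes, was at 14.3 against 8.28 CPM and passed the minimum only in the mutant library. The core chaperone *pomp* was at 89.99 against 93.9 CPM, with an interval of the fold from 0.851 to 1.08.

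Of 16 measured ubiquitin shuttles and factors of the p97 segregase none passed 2-fold, with a median of 0.14, against 0.13 for all measured genes. *rad23ab* was at 36.3 against 19.8 CPM, *zfand5a* at 130 against 77.3 CPM and *nploc4* at 109 against 169 CPM. *rad23b*, another shuttle gene, was just under the minimum with 2 against 60 counts. It too lies before *add1* on chromosome 21, from 432861 to 460572. The proteasome genes on that chromosome, *psmd5* from 5203565 and *psmb7* from 8249235, lie beyond *add1* and were within 1.5-fold. Both were lower in the mutant library, *psmd5* 1.27-fold (0.998 to 1.61) and *psmb7* 1.14-fold (1.08 to 1.20). Of the list genes farther along it, *ublcp1* and *nedd4l* were higher and *pomp* was lower. The intervals of *nedd4l* and *pomp* include 1. Any part of chromosomal position in these values was not tested, and other genes between the chromosome's start and *add1* were not examined.

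Of 11 measured transcription factors and processing factors of proteasome genes, 1 was at least 2-fold higher, against 10.1% of all measured genes. None was at least 2-fold lower, against 2.56%, and the median was -0.30. *nfe2l1b*, of the factor that raises proteasome genes when the proteasome is inhibited in mammals, was at 90.5 against 114 CPM, 1.26-fold lower (1.12 to 1.41). *nfe2*, its relative of the erythroid lineage, was at 101 against 188 CPM, 1.86-fold lower (1.68 to 2.05). The higher gene was *nfe2l2b*, with 65 against 20 counts, or 10.9 against 3.25 CPM, and it passed the minimum of 10 CPM only in the mutant library, so it had to be higher there to be measured. *keap1a*, of the adaptor that targets Nrf2 for degradation, was at 41.3 against 61.2 CPM.

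The list of ubiquitin ligation factors of late red cells had 3 measured genes with a median of -0.16, none past 2-fold. *ube2c* was at 107 against 151 CPM (a further row of that name had 17 against 14 counts), *nedd4l* at 19.1 against 16.9 CPM and *ube2h* at 421 against 469 CPM. Genes of this list, *ube2c* among them, were not shown here to be particular to late red cells. *ube2o*, which in mammals tags ribosomal proteins in reticulocytes, had 0 against 3 counts. The COP9 signalosome, whose subunits are related to those of the lid, had 7 measured genes within 1.5-fold and a median of 0.04. Its members with the largest ratios were *cops7a*, at 125 against 89.0 CPM, *cops4*, at 286 against 246 CPM, and *gps1*, at 158 against 175 CPM. Each of these list medians would be lower by about the shift of all genes under TMM, at -0.42 for the ubiquitin and E1 list, -0.30 for the accessory factors, -0.06 for the shuttles, -0.50 for the transcription factors, -0.36 for the ligation factors and -0.16 for the signalosome.

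**Figure D5:**
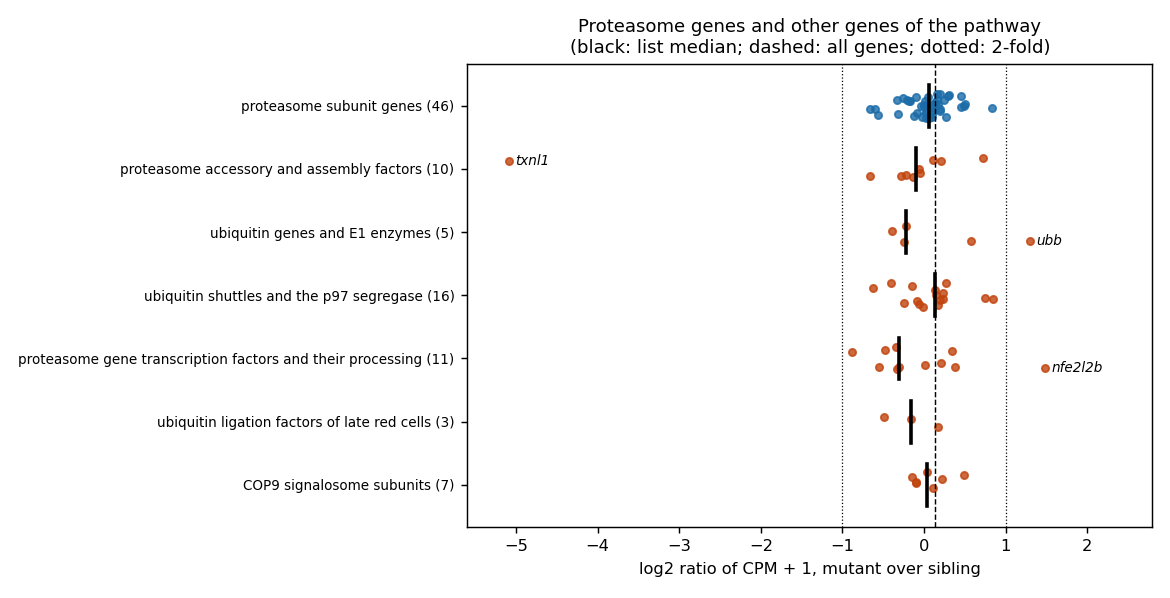
Log2 ratios of CPM + 1 (mutant over sibling) for the measured genes of the proteasome and of 6 lists of the pathway, with the number of genes in parentheses and black bars at the medians. The genes past 2-fold are *txnl1*, *ubb* and *nfe2l2b*, of which *txnl1* and *nfe2l2b* reached 10 CPM only in the library where they are higher.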

How the data were processed

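Per the labels' protocols, RNA of the sorted cells went through the SMART-Seq HT kit, which amplifies cDNA without molecular identifiers, and a BGISEQ-500 sequencer. The table deposited by the authors has a raw count and an FPKM value per gene for 1 mutant and 1 sibling library, per the file headers. The build is GRCz10, per the submitters' processing notes, while aligner, counter and strand setting were not given in the sources used here. Members were found by gene name, and members, lists and naming rule were chosen with earlier results of these data known. Counts were divided by library totals of 5956344 and 6157792, with a pseudocount of 1 CPM for log2 ratios and a minimum of 10 CPM, which is 59.6 and 61.6 counts. Intervals are exact (Clopper-Pearson, 95%), and the floor for a count of 0 is 3 counts. The interval of the difference of core shares combines those of the libraries. TMM factors came from edgeR 4.0.16 in R 4.3.3, and other steps from Python 3.11.15 with scipy 1.17.1. Functions were tested on simulated counts. All members are accounted for, with full values for extremes of ratio and level, paralog pairs, activators, inhibitor and chaperones, and in the lists for genes past 2-fold and up to 3 with the largest ratios. Other genes named were chosen after their values were seen. A gene of these lists is not reported here. Lists were matched by symbol or through the name table. Alternatives were other scalings, FPKM, pseudocounts, minimums, fold rules and member sets. No sequences were used here.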

Additional observations from a re-analysis of the deposited data

How the results depend on the processing

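With 1 library per group no setting carries a test, and the differences below are between these libraries. The median log2 ratio of proteasome genes, 0.07 with library totals, turned negative with TMM (-0.14), median of ratios (-0.14), upper quartile (-0.14) and totals less the globin, ribosomal protein and mitochondrial genes (-0.038). These scalings lower all genes alike by construction. It was 0.083 with a minimum of 50 CPM and 0.034 with none, where 5 genes at 0 count as unchanged. Relative to the median of all genes it turned from -0.07 to 0.04 and 0.03 under these settings. The core minus cap difference of medians, 0.02, was -0.056 with 50 CPM, -0.050 with no minimum and -0.018 without *psmb8* to *psmb13*, *psmd5*, *psmd9* and *psmd10*. It was -0.00089 with paralogs summed and -0.014 with 4 rows matched by other names, both chosen after seeing the data; the cause was not tested. The count of genes at least 2-fold lower was 1, *psme1*, with a minimum of 1 CPM or none, and at 1.5-fold 1 gene was higher and 2 were lower. The core share was 44.6% and 45.6% on FPKM and 35.04% and 36.3% without the subunits named, and it was lower in the mutant library in all 5 settings run. These settings rest largely on the same counts, so they are not 5 separate checks. None of them left out *psmd3* or *psmd8*. For the 48 members with counts in both libraries, 200 values under alternatives stayed within the counting interval and 136 moved beyond it. Every move came with TMM, median of ratios, upper quartile or totals less the abundant gene classes. None came with FPKM or another pseudocount. No paired analysis was possible because each group has 1 library. Depth limits *psme1*, *psmb12* and the genes at 0 most.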
